A study of Mus musculus with 2 samples.

Results

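The factors that process the 3′ ends of histone mRNAs were followed as 7 genes, Lsm10, Lsm11, Slbp, Zfp473, Casp8ap2, Npat and Eri1. They were taken by symbol from the 32285 genes listed for both libraries, and all 7 were found. They were read beside the summed counts of 67 clustered histone genes, whose symbols start with Hist1h, Hist2h, Hist3h or Hist4h and which are called Hist genes here. The cells came from dissociated whole spinal cords of FVB mice at postnatal day 4, with 1 single-cell library per genotype. One library, labelled SMA, was made from mSmn-/-, hSMN22tg/0 mice of the severe Taiwanese model of spinal muscular atrophy. The other, labelled Con, was made from mSmn+/-, hSMN22tg/0 littermates. Both groups therefore carried the human SMN2 transgene, and the Con mice had lost 1 mouse allele. Littermates were pooled before dissociation, so animals cannot be told apart within a library, and the sexes of the animals were not given. Cells are called SMA-labelled and Con-labelled after their library, and paired values are given in that order. Since each group was 1 library, no test between groups was run, and every interval is an exact 95% interval that covers counting error only.

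Replication-dependent histone mRNAs are the animal mRNAs that normally end without a poly(A) tail. Their 3′ end is formed by a cut just after a short stem-loop, which stem-loop binding protein (SLBP, from Slbp) recognises. The U7 snRNP, a small RNA with a ring of Sm proteins, pairs with the RNA downstream of the cut. Lsm10 and Lsm11 take the places that SmD1 and SmD2 hold in the rings of spliceosomal snRNPs. The SMN complex, the complex affected in spinal muscular atrophy, loads both kinds of ring. ZFP100 (Zfp473) links the stem-loop complex to the U7 snRNP, and FLASH (Casp8ap2) binds Lsm11 and helps to recruit the cleavage factors. NPAT (Npat) is a coactivator of histone gene transcription in S phase, and Eri1 is an exonuclease that binds the stem-loop and trims histone mRNA ends. The libraries were primed from poly(A), so they count Hist RNA only where a tail or an A-rich stretch let the primer bind.

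The stem-loop is the site that SLBP and Eri1 bind, and the copies below are shown because their genes are described later: 5 are among the 8 Hist genes with most UMIs, and Hist1h4h had the highest ratio between the libraries. They were read from GENCODE M21 transcripts (GRCm38), on the sense strand, with the stem-loop in capitals and 5 bases before and up to 7 bases after it in lower case.
Hist1h2ap: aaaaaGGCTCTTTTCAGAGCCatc
Hist1h2ae: acaaaGGCTCTTTTCAGAGCCattcact
Hist1h1c: caaaaGGCTCTTTTCAGAGCCaccactc
Hist3h2ba: ccaaaGGCTCTTTTCAGAGCCaccttcc
Hist1h4i: ttaaaGGCCCTTTTTAGGGCCaccacaa
Hist1h4h: ccaaaGGCCCTTTTCAGGGCCgcccaca
They lie in 3′ UTRs at chr13:21833026-21833049 (minus strand), chr13:23570661-23570688 (minus), chr13:23739507-23739534 (plus), chr11:58949344-58949371 (plus), chr13:22040959-22040986 (minus) and chr13:23531453-23531480 (plus), in the order shown. The letters searched, on the transcript strand only, were GG, NN, CTTT, NN, AG, NN and CC in 1 run, where N is any base. They were present after the stop codon of 44 of 67 Hist genes, in 6 forms, and lay 21 to 58 bases past it (median 31). In 0.417% of 21834 other protein-coding genes the letters occurred anywhere in a transcript. The annotated transcript ended 3 bases after the stem-loop in Hist1h2ap, but ran on for 151 bases in Hist1h2ae, 840 in Hist1h1c, 169 in Hist3h2ba, 330 in Hist1h4i and 46 in Hist1h4h. The most abundant Hist gene, Hist1h2bc, had no such letters after its stop codon in the annotated transcript.

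The libraries held 26921 and 25419 barcodes with 85872075 and 97894084 UMIs. The filters on genes and mitochondrial share left 13296 and 10256 barcodes. Dropping 1 cluster rich in ribosomal UMIs, to which only Con barcodes belonged, then left 13296 and 8917. Without the SMA barcodes also listed for Con, as given below, 6787 SMA-labelled and 8917 Con-labelled cells were used, with medians of 6109 and 6229 UMIs. The 33 clusters were made from all 13296 and 8917 barcodes, the SMA ones also listed for Con included, and without the genes studied here. They were named from marker genes only, so each class below is like its name by markers. Named cells other than erythroid ones numbered 6208 and 7622, and 10 classes had at least 50 cells in each library. Neurons were few, at 44 and 26 cells. The libraries had 8163 barcodes in common. Of the barcodes with at least 5000 UMIs, 98.98% of the Con ones were also listed for SMA, and 2.78% of the SMA ones were also listed for Con. The 6509 kept SMA barcodes also listed for Con were therefore left out, and those among them in named classes had a median of 1354 UMIs.

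Smn1, the gene targeted in these mice, stood at 52.15 and 51.74 CPM (UMIs per 1000000 UMIs of the same cells), a log2 ratio of 0.01 (-0.07 to 0.10). A 3′ count does not tell an intact transcript from a disrupted one, so it does not check the genotype. Xist, which is transcribed in female cells, stood at 1.49 CPM in the SMA cells used and at 536 CPM in the SMA barcodes also listed for Con. In Con cells it stood at 638 CPM where the barcode was shared and at 543 CPM where it was not, so genotype, sex and library cannot be told apart. The SMA barcodes also listed for Con were thus shallow and had a Xist level near that of Con cells. Whether they hold cells of the SMA animals was not tested, and each value given with them kept has this limit.

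Over all named non-erythroid cells, none of the 6 better counted factors differed by 1.5-fold between the libraries, while the summed Hist genes were 2.27-fold higher in SMA-labelled cells. Slbp gave 5076 and 5373 UMIs (124 and 110 CPM), with a log2 ratio of 0.17 (0.12 to 0.23). Lsm10 gave 986 and 1327 UMIs (24.1 and 27.2 CPM), with a ratio of -0.17 (-0.29 to -0.05). Its partner in the U7 ring, Lsm11, gave 456 and 472 UMIs (11.1 and 9.67 CPM), with a ratio of 0.21 (0.02 to 0.39). The partners thus lay on opposite sides of 0, each with an interval that left out 0, but the share of all genes with such an interval was not computed. Casp8ap2 gave 1167 and 1226 UMIs (28.5 and 25.1 CPM), with a ratio of 0.18 (0.07 to 0.30). For Npat the counts were 438 and 506 (10.7 and 10.4 CPM), with a ratio of 0.05 (-0.14 to 0.23). Those of Eri1 were 874 and 990 (21.4 and 20.3 CPM), with a ratio of 0.08 (-0.06 to 0.21), and the intervals of Npat and Eri1 held 0.

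These ratios depended on the shared barcodes. With the shared SMA barcodes kept, they were 0.13 for Slbp, -0.11 for Lsm10, 0.13 for Lsm11, 0.15 for Casp8ap2, 0.10 for Npat, 0.06 for Eri1 and 1.05 for the Hist sum. With shared barcodes left out of both libraries, an alternative added after seeing the data, 1975 Con cells with a median of 2612 UMIs were left in the named classes. The ratios were then 0.58 for Slbp, -0.37 for Lsm10, 0.08 for Lsm11, 0.95 for Casp8ap2, 0.59 for Npat, 0.08 for Eri1 and 1.48 for the Hist sum, so that Casp8ap2 and Npat were past 1.5-fold. The share of all genes past it was not computed for this alternative. The 4 sets of cells, shared SMA, other SMA, shared Con and other Con, had 597, 1024, 460 and 367 CPM of Hist RNA. They had 105, 124, 113 and 83.03 CPM of Slbp and 29.2, 24.1, 26.7 and 31.1 CPM of Lsm10.

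Zfp473 was close to the limit of detection, with 8 SMA-labelled and 15 Con-labelled UMIs. Its log2 ratio of -0.65 (-2.10 to 0.68) was the 1 member ratio past 1.5-fold in the lower direction, where 7.08% of the 16957 genes with at least 20 UMIs lay, and its interval held 0. In the higher direction lay 0 of 7 members and 9.01% of these genes. Zfp473 had no UMI in either library in 4 of 10 classes, and the 0 UMIs in SMA-labelled astrocytes allow up to 0.343 CPM (3 counts). The median member ratio was 0.08 and the median of all these genes 0.03.

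The summed Hist genes gave 41899 and 21982 UMIs (1024 and 450 CPM), with a log2 ratio of 1.19 (1.16 to 1.21). They were higher in SMA-labelled cells in 10 of 10 classes, from 0.66 in Schwann cells to 2.63 in endothelial cells and fibroblasts, and every interval lay above 0. The factors did not share this pattern: Lsm10 was lower in 8 of 10 classes and Slbp in 7, whereas Casp8ap2, Npat and Eri1 were higher in 6 and Lsm11 in 5. Most of these class intervals held 0: those of Lsm10 did in 10 of 10 classes, and for Slbp 2 lay above 0 and 2 below. The class ratios had a median of -0.17 for Lsm10, -0.05 for Slbp, 0.11 for Lsm11, 0.05 for both Casp8ap2 and Npat and 0.06 for Eri1, against 1.07 for the summed Hist genes. For Slbp the pooled ratio was above 0 and the median class ratio below it, with unequal class sizes in the libraries.

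**Figure D1:**
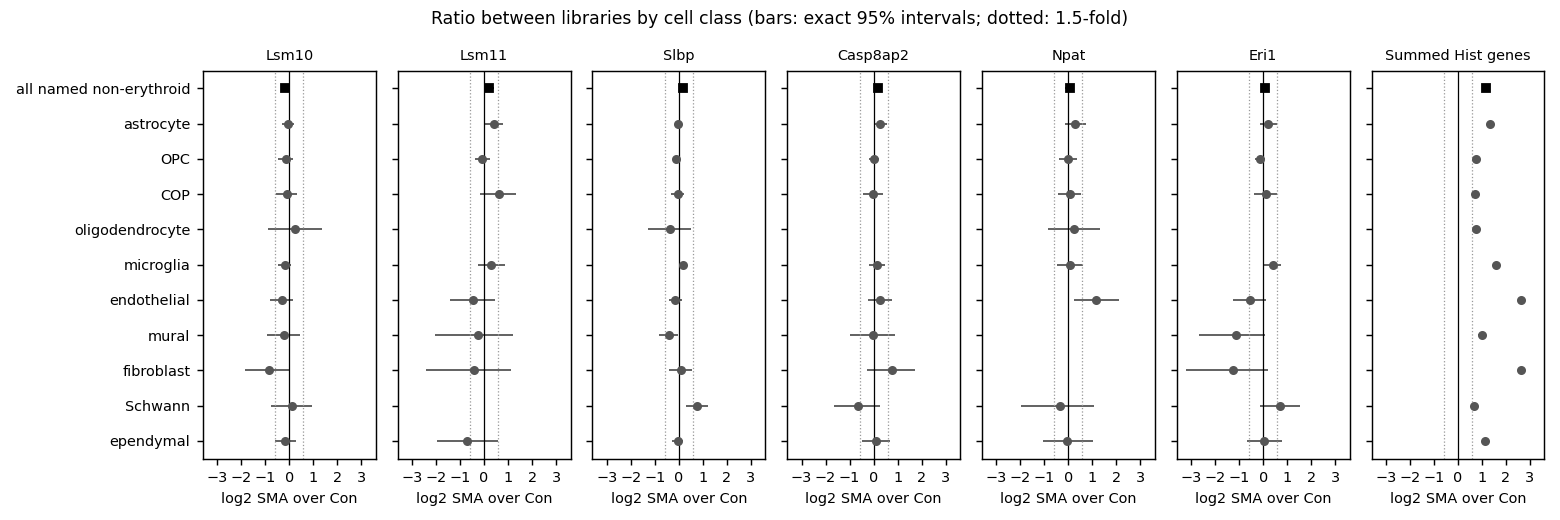
Log2 ratio of SMA-labelled over Con-labelled levels (x axis) for 6 factors and the summed Hist genes, over all named non-erythroid cells (squares) and in 10 cell classes (circles, y axis). Bars are exact 95% intervals, dotted lines mark 1.5-fold, and pairs under 20 UMIs are not drawn. The Hist ratios lie right of 0 in each class, from 0.66 to 2.63, and those of the factors lie on both sides of it.

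Each member was next examined within classes, so that class sizes did not set the ratio. Of 70 pairs of a member and a class, 54 had at least 20 UMIs, of which 5 were past 1.5-fold higher in SMA-labelled cells, 5 lower and 44 neither. Zfp473 made up 10 of the 16 pairs with fewer UMIs. In astrocytes, oligodendrocyte precursor cells (OPCs) and microglia, 0 of 6 members were past 1.5-fold in either direction. Among all genes with at least 20 UMIs, 4.1% were past it higher and 5.74% lower in astrocytes, 4.31% and 3.77% in OPCs and 7.39% and 3.56% in microglia. With shared barcodes left out of both libraries, members did pass 1.5-fold in these classes. They were Npat (0.82) and Eri1 (0.61) in astrocytes, Casp8ap2 (0.85) and Eri1 (0.61) in OPCs, and Casp8ap2 (0.61), Lsm10 (-0.85) and Eri1 (-0.97) in microglia. The share of all genes past 1.5-fold was not computed with shared barcodes out of both, so these calls have no background beside them. In oligodendrocytes, with a median of 2324 and 1327 UMIs per cell, 0 of 3 members were past it, against 20.3% of genes higher and 10.2% lower.

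The 10 pairs past 1.5-fold fell in the other 6 classes, and each of them came within 1.5-fold, or turned its direction, under at least 1 alternative. In Schwann cells of the nerve roots, 92 and 218 cells, Slbp gave 78 and 102 UMIs (87.4 and 51.8 CPM), with a log2 ratio of 0.75 (0.31 to 1.19). There Eri1 gave 23 and 31 UMIs (0.71, -0.14 to 1.53) and Casp8ap2 13 and 45 (-0.65, -1.67 to 0.26). Lsm11 in these cells had 11 and 8 UMIs, 1 short of the minimum, with a log2 ratio of 1.60 (0.15 to 3.12). Thus 2 of 5 counted members were past 1.5-fold higher and 1 lower, against 10.9% and 12.5% of all genes of the class, and the interval of Slbp alone among these 3 left out 0. With shared SMA barcodes kept the ratios were 0.56 for Slbp, 0.35 for Eri1 and -0.37 for Casp8ap2, within 1.5-fold.

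In endothelial cells, Npat gave 27 and 18 UMIs (10.95 and 4.97 CPM), with a log2 ratio of 1.14 (0.23 to 2.09). That was 1 of 6 members past 1.5-fold higher and 0 lower, against 8.88% and 8.9% of genes. The ratio was 0.53 with a limit of 7000 genes per cell and 0.24 with shared barcodes left out of both libraries, both within 1.5-fold. In mural cells, the pericytes and smooth muscle of vessels, Npat had 0 SMA-labelled UMIs, which allows up to 5.32 CPM, and 16 Con-labelled UMIs or 8.97 CPM. Eri1 in mural cells gave 6 and 42 UMIs (-1.15, -2.67 to 0.10), 1 of 5 members past 1.5-fold lower with 0 higher, against 14.8% and 10.3% of genes. Slbp was lower there by less than 1.5-fold, with 63 and 267 UMIs (-0.42, -0.84 to -0.02). With shared barcodes left out of both libraries the mural ratios turned to 0.76 for Eri1 and 0.35 for Slbp, and with shared SMA barcodes kept Eri1 stood at -0.45.

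In committed oligodendrocyte precursors (COPs), Lsm11 gave 27 and 41 UMIs (8.24 and 5.43 CPM), with a log2 ratio of 0.60 (-0.16 to 1.34). It was 1 of 6 members past 1.5-fold higher with 0 lower, against 7.58% and 4.6% of genes, and with shared barcodes left out of both libraries its ratio turned to -0.47. In 1 cluster of this class, with 227 of the 846 Con-labelled COPs, 8 of 9 COP markers and 10 of 12 oligodendrocyte markers were detected. The class may thus hold later cells of the lineage as well. In ependymal cells, Lsm11 gave 14 and 11 UMIs (-0.70, -1.95 to 0.58), 1 of 6 members past 1.5-fold lower with 0 higher, against 7.55% and 6.07% of genes. The interval of Lsm11 held 0 in both classes, and with a mitochondrial limit of 20% its ratios were 0.43 and -0.31.

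Fibroblasts numbered 64 and 600, and 433 of the Con-labelled ones formed a cluster with 0 SMA-labelled cells. In this class Lsm10 gave 12 and 102 UMIs (-0.86, -1.86 to 0.0036), Eri1 4 and 45 (-1.27, -3.20 to 0.19) and Casp8ap2 13 and 36 (0.75, -0.28 to 1.70). That was 1 of 5 members past 1.5-fold higher and 2 lower, against 19.3% and 23.8% of genes. Without the Con-labelled cluster the fibroblast ratio became -0.81 for Lsm10, -0.66 for Eri1 and 0.25 for Casp8ap2, so that Casp8ap2 was no longer past 1.5-fold. Lsm10 stood at -0.43 with a limit of 7000 genes and Eri1 at -0.47 with shared SMA barcodes kept.

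**Figure D2:**
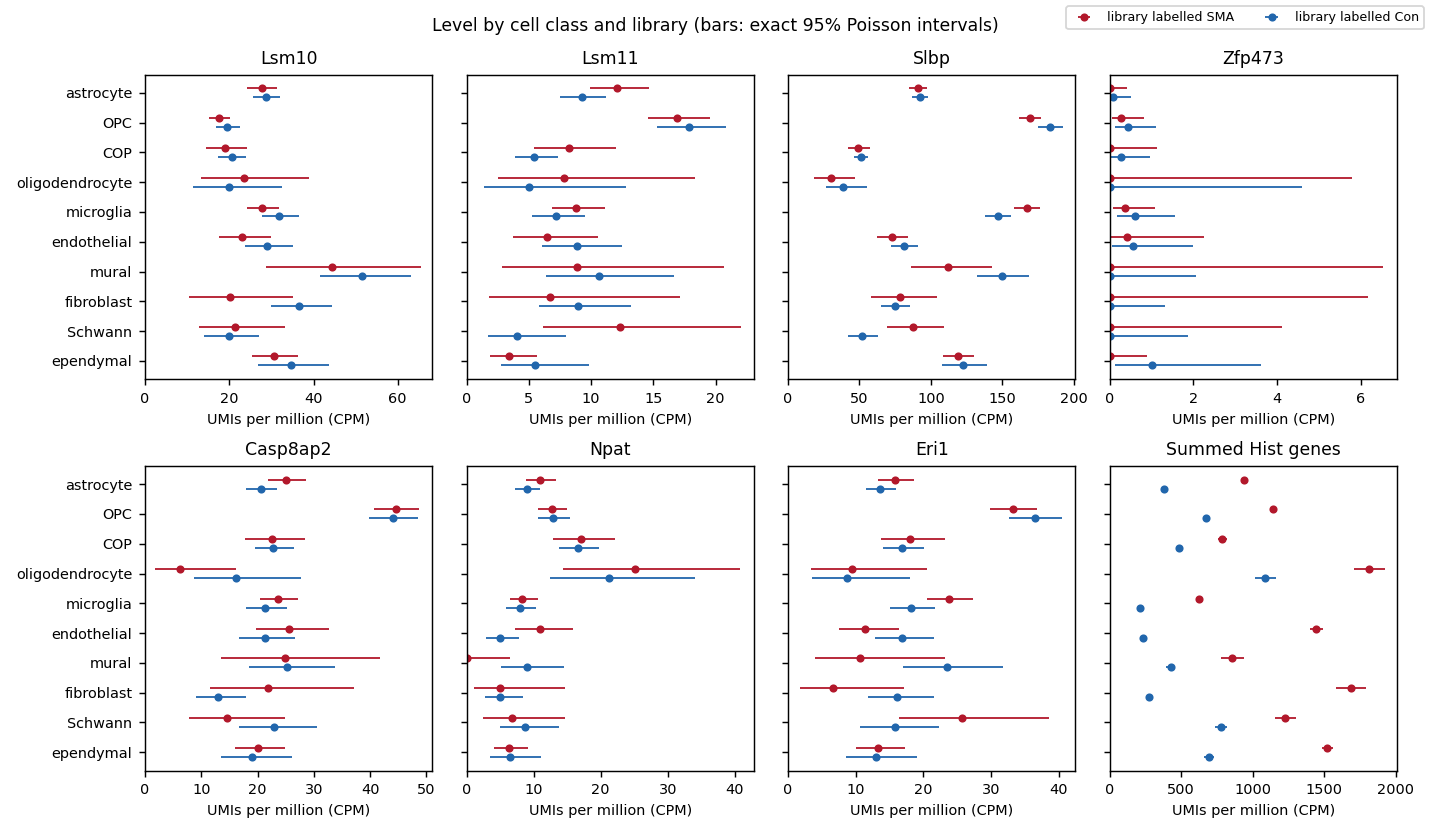
Level in CPM (x axis) of the 7 factors and the summed Hist genes in 10 cell classes (y axis), SMA-labelled in red and Con-labelled in blue. Bars are exact 95% Poisson intervals. Slbp, Lsm11, Casp8ap2 and Eri1 are highest in OPCs in both libraries, Npat in oligodendrocytes and Lsm10 in mural cells, while the red Hist points lie right of the blue ones in every class.

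Slbp levels spanned a wider range over classes than between libraries. Slbp was highest in OPCs, at 169 CPM (162 to 177) and 184 CPM (175 to 193). It was lowest in oligodendrocytes, at 29.8 and 38.7 CPM, and COPs, which lie between these stages of the lineage, had 49.1 and 50.9 CPM. Mural cells stood at 112 and 150 CPM, microglia at 167 and 147 CPM, ependymal cells at 119 and 123 CPM and astrocytes at 90.8 and 92.1 CPM. Over the 10 classes the order of Slbp in one library had a rank correlation of 0.92 with the order in the other, given as a description. Even so, 7 of 9 neighbouring classes in the SMA order and 6 of 9 in the Con order had overlapping intervals.

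Casp8ap2 stood at 44.5 and 44.0 CPM in OPCs, against 6.28 to 25.6 CPM and 12.9 to 25.2 CPM in the other classes. Eri1 stood at 33.2 and 36.4 CPM in OPCs, and Lsm11 at 16.9 and 17.9 CPM. For Lsm11 and Npat, 9 of 9 neighbouring pairs of classes overlapped in each library. The U7 partner Lsm10 was instead lowest in OPCs, at 17.6 and 19.5 CPM, and highest in mural cells, at 44.3 and 51.6 CPM, but 9 of 9 and 8 of 9 of its neighbouring pairs overlapped, OPCs with the next class included. Npat was highest in oligodendrocytes, at 25.1 CPM (16 UMIs) and 21.2 CPM (17 UMIs), and stood at 17.1 and 16.6 CPM in COPs. The summed Hist genes were also highest in oligodendrocytes, at 1814 and 1089 CPM, and lowest in microglia, at 623 and 211 CPM, a class in which Slbp was high.

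The share of cells with a UMI was compared at equal depth, with each cell thinned to 1000 UMIs. Slbp was found in 13.8% of SMA-labelled OPCs (12.2 to 15.4) and 15.5% of Con-labelled ones (13.8 to 17.4). In erythroid cells, taken as the background class, the shares were 1.14% and 0.970%. They were not free of cycle genes, since 5.24% and 5.92% of them fell in the G2M range defined below. Unthinned, the OPC shares were 48.2% and 50.2% at medians of 5531 and 5595 UMIs, and the erythroid shares 9.77% and 6.38% at 10002 and 9874 UMIs. Casp8ap2 was found in 3.96% and 3.35% of thinned OPCs against 0 of 439 SMA-labelled erythroid cells, which allows up to 0.683% (3 counts) or 0.837% by the exact interval, and 0.194% of Con-labelled ones. Its unthinned shares were 20.1% and 19.5% in OPCs and 2.27% and 2.42% in erythroid cells. Left out as too shallow were 6 and 8 OPCs.

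The factors were then read along the cell cycle. Each thinned cell was placed by 24 S phase and 24 G2M genes, none of them a member: S range for 2 or more S UMIs and at least as many as G2M UMIs, G2M range for 2 or more and more than S, and non-cycling for 0 of both. These are ranges of a count, not cell types, and 1488 and 1729 cells with 1 UMI of a list, or 1 of each, lay between them. The S range held 703 and 834 cells, among them 17.5% and 24.4% of OPCs and 12.97% and 8.54% of microglia. Levels were summed from the unthinned counts.

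In SMA-labelled OPCs, Slbp stood at 87.9 CPM in non-cycling cells, 352 CPM in the S range and 210 CPM in the G2M range. In Con-labelled OPCs the levels were 90.6, 341 and 204 CPM. The S range was thus 4.01-fold and 3.77-fold over non-cycling cells, with log2 intervals of 1.82 to 2.19 and 1.71 to 2.12. The ranges stood in the same order in both libraries, and within the S range the log2 ratio of SMA-labelled over Con-labelled OPCs was 0.05 (-0.10 to 0.20). Casp8ap2 had S range ratios of 1.34 (0.99 to 1.69) and 1.93 (1.49 to 2.38) in OPCs. Its S range levels were 78.3 and 74.4 CPM, and in non-cycling OPCs it stood at 30.9 and 19.5 CPM, a log2 ratio of 0.66 (0.20 to 1.13) between the libraries. Eri1 had ratios of 1.70 (1.29 to 2.11) and 1.27 (0.83 to 1.72), and Lsm11 1.15 (0.54 to 1.75) and 0.92 (0.34 to 1.52). For these 4 genes both intervals lay above 0 in OPCs, and both ratios were past 1.5-fold higher. Past that fold in the S range of OPCs were 10.3% and 10.4% of all genes.

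Npat and Lsm10 differed from those 4 genes. Npat had S range ratios of 0.43 (-0.27 to 1.10) and 1.02 (0.31 to 1.76) in OPCs. Lsm10 had ratios of 0.23 (-0.37 to 0.81) and -0.49 (-1.09 to 0.09), with intervals that held 0. Over all named non-erythroid cells Lsm10 was lower in the G2M range than in non-cycling cells, at 16.9 against 24.9 CPM in SMA-labelled cells (-0.56, -0.91 to -0.22) and 18.2 against 28.5 CPM in Con-labelled cells (-0.65, -0.98 to -0.32). Lsm11 was higher there, with G2M ratios of 0.96 and 1.05, so the pooled U7 partners lay on opposite sides of 0 in both libraries. OPCs, lowest in Lsm10, were 362 of 661 and 302 of 714 G2M range cells but 797 of 3330 and 568 of 4090 non-cycling ones. Within OPCs the Lsm10 ratios were -0.29 (-0.92 to 0.31) and -0.81 (-1.49 to -0.16). Those of Lsm11 were 0.75 (0.14 to 1.36) and 0.46 (-0.20 to 1.12). In Con-labelled astrocytes both genes were below 0, and in SMA-labelled ones and in microglia they lay on opposite sides. The part of class mix was not tested.

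Slbp, Casp8ap2 and Eri1 also stood higher in the S range in astrocytes and microglia, by more than 1.5-fold and with intervals above 0 in both libraries. In astrocytes the S range ratio was 1.77 (1.499 to 2.04) and 1.64 (1.40 to 1.87) for Slbp, 1.25 and 0.88 for Casp8ap2 and 2.06 and 1.35 for Eri1. In microglia it was 1.29 (1.09 to 1.49) and 1.19 (0.93 to 1.45) for Slbp, 1.28 and 2.24 for Casp8ap2 and 1.63 and 1.34 for Eri1. Past 1.5-fold higher in the S range were 14.5% and 13% of genes in astrocytes and 10.3% and 17.3% in microglia. Non-cycling microglia had 129 and 117 CPM of Slbp, against 68.0 and 76.5 CPM in non-cycling astrocytes and 87.9 and 90.6 CPM in non-cycling OPCs. Outside the cycling ranges Slbp was thus higher in microglia than in OPCs. Over all cells of these classes it was higher in OPCs in the Con library, while in the SMA library the intervals overlapped, at 169 and 167 CPM. Lsm11 ratios in astrocytes were 0.69 (-0.30 to 1.57) and 0.82 (-0.11 to 1.65), on 13 and 15 UMIs in the S range. Over all named non-erythroid cells, where 11.3% and 14.4% of genes were past 1.5-fold higher, the S range ratio of Lsm11 was 1.01 (0.62 to 1.39) and 1.49 (1.15 to 1.83).

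**Figure D3:**
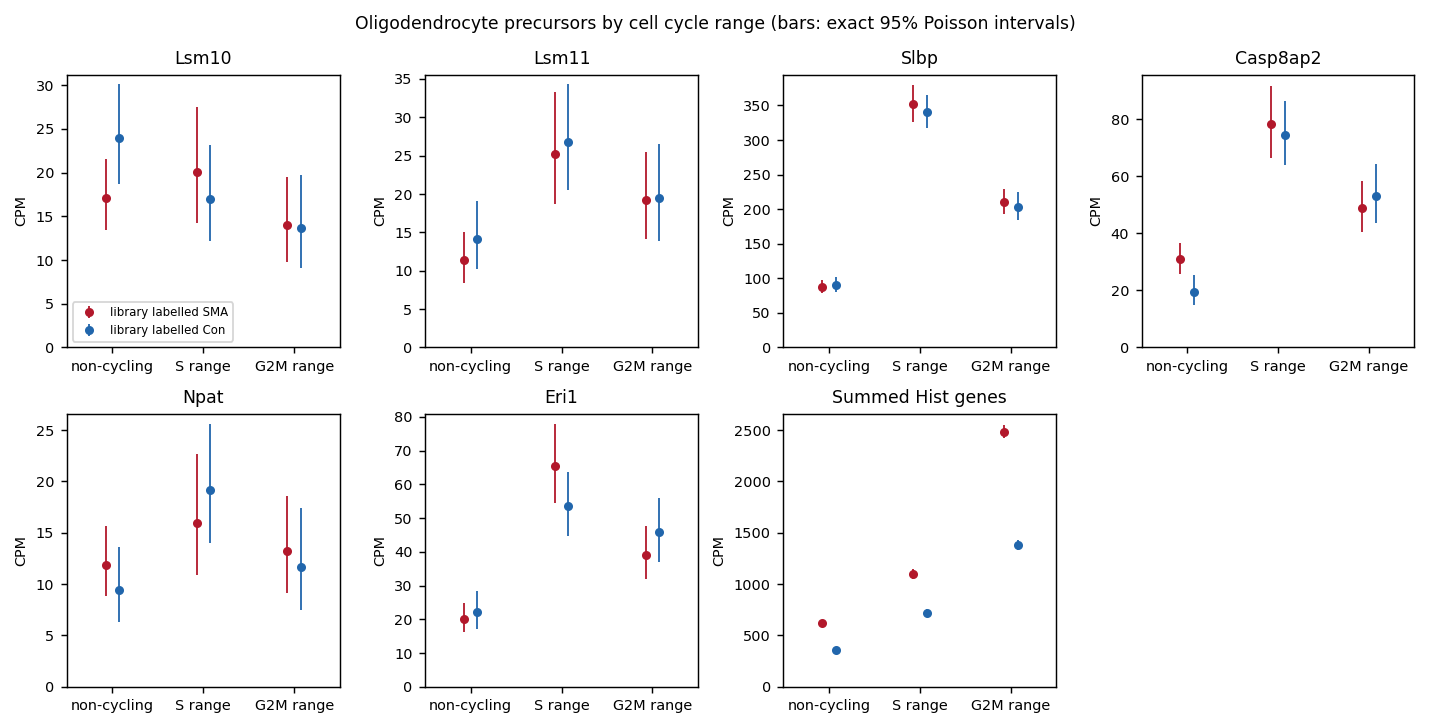
Level in CPM (y axis) of 6 factors and the summed Hist genes in OPCs of the non-cycling, S and G2M ranges (x axis), SMA-labelled in red and Con-labelled in blue. Bars are exact 95% Poisson intervals. Slbp peaks in the S range at 352 and 341 CPM with the libraries overlapping, whereas the Hist sum is highest in the G2M range, at 2485 and 1379 CPM, with the libraries apart in each range.

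The Hist sum had another course. It stood at 622, 1100 and 2485 CPM in the non-cycling, S and G2M ranges of SMA-labelled OPCs and at 357, 719 and 1379 CPM in those of Con-labelled OPCs. It was thus highest in the G2M range, where Slbp was below its S range level. In microglia the S range ratio of the Hist sum was 0.13 (-0.01 to 0.28) and -0.07 (-0.41 to 0.25), and the G2M ratio 2.34 and 2.78. The SMA over Con log2 ratio of the Hist sum in OPCs was 0.80 (0.70 to 0.90) in non-cycling cells, 0.61 (0.52 to 0.71) in the S range and 0.85 (0.79 to 0.91) in the G2M range. Over all OPCs it was 0.76, and 1.54 with shared barcodes left out of both libraries. Over all named non-erythroid cells these ratios were 1.10, 0.91 and 1.29, so the higher Hist sum was present in cells that had no UMI of either cycle list after thinning. In the same 3 ranges the SMA over Con ratio of Slbp was 0.14, 0.12 and 0.12.

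The 8 Hist genes with most UMIs held 83.7% of SMA-labelled and 81.0% of Con-labelled Hist UMIs, and they took different courses along the cycle. Hist1h2ap, an H2A gene, stood at 4.04, 185 and 447 CPM in non-cycling, S and G2M range SMA-labelled OPCs and at 3.03, 134 and 312 CPM in Con-labelled ones. Hist1h1b, which encodes a linker histone, stood at 2.61, 170 and 391 CPM and at 0.674 (2 UMIs), 163 and 284 CPM. Hist1h2ae stood at 7.60, 113 and 295 CPM and at 3.37, 63.4 and 140 CPM. In these 3 genes the level in non-cycling OPCs was at most 7.60 CPM, while the S and G2M ranges, in which Slbp, Casp8ap2 and Eri1 were also higher, held 63.4 CPM or more.

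Hist3h2ba and Hist3h2a, a neighbouring pair on chromosome 11, were highest in non-cycling OPCs. Hist3h2ba stood at 233, 145 and 158 CPM in SMA-labelled and at 183, 92.7 and 88.7 CPM in Con-labelled OPCs, with S range ratios of -0.68 (-0.88 to -0.49) and -0.98 (-1.21 to -0.75). Hist3h2a had S range ratios of -0.41 and -0.96. Hist1h2bc, an H2B gene, stood at 203, 159 and 445 CPM and at 61.3, 40.0 and 90.7 CPM, so it was lower in the S range in both libraries. Hist1h1c, another linker histone, stood at 29.5, 44.8 and 148 CPM and at 15.5, 25.1 and 56.6 CPM. Hist1h4i, an H4 gene, stood at 31.8, 23.7 and 54.4 CPM and at 5.73, 11.1 and 22.4 CPM.

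**Figure D4:**
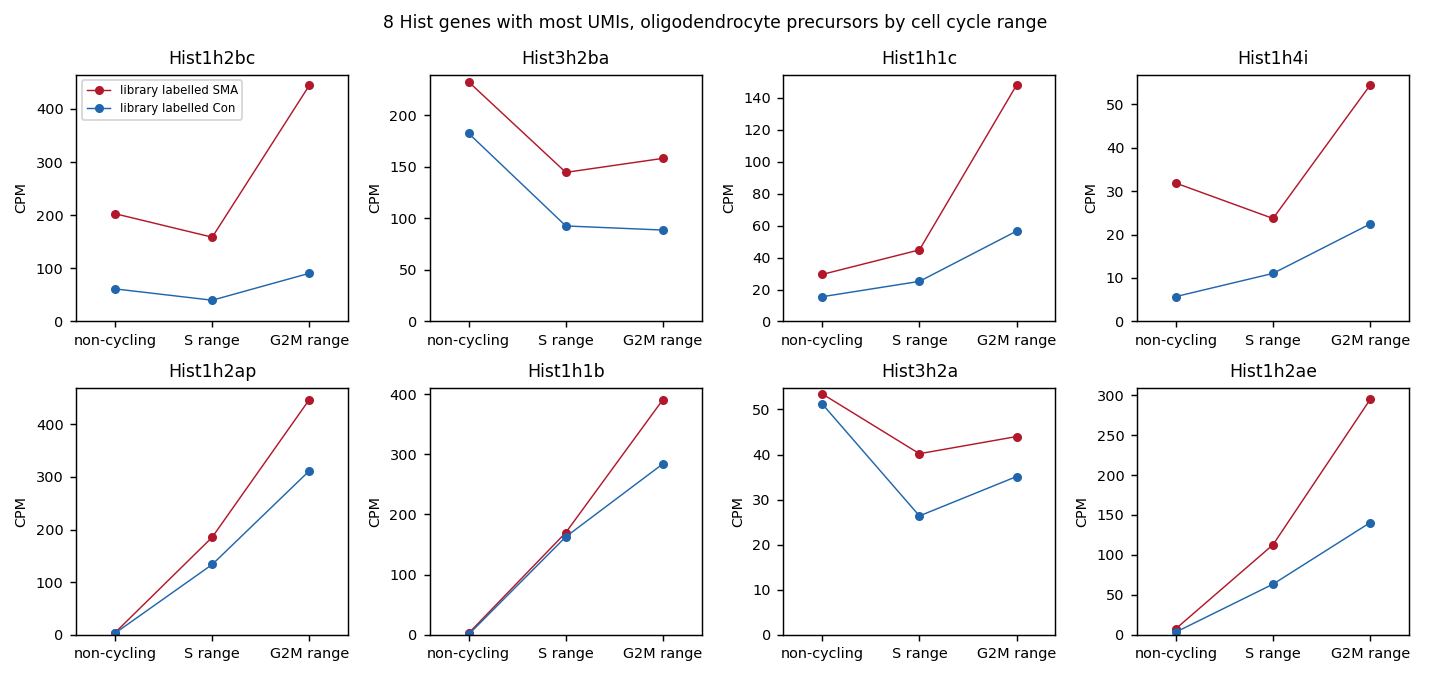
Level in CPM (y axis, a separate scale for each gene) of the 8 Hist genes with most UMIs in OPCs of the non-cycling, S and G2M ranges (x axis), SMA-labelled in red and Con-labelled in blue. Hist1h2ap, Hist1h1b and Hist1h2ae start at 0.674 to 7.60 CPM and are highest in the G2M range, whereas Hist3h2ba and Hist3h2a are highest in non-cycling cells.

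The higher level in SMA-labelled cells was found in Hist genes of both courses. Over all named non-erythroid cells, Hist1h2bc gave 15548 and 5578 UMIs (380 and 114 CPM), with a log2 ratio of 1.73 (1.69 to 1.78). The ratios of the others were 2.06 for Hist1h4i, 1.502 for Hist1h1c, 1.32 for Hist1h2ae, 0.74 for Hist1h2ap, 0.46 for Hist3h2a, 0.44 for Hist1h1b and 0.42 for Hist3h2ba. Hist1h4h, singled out after its values were seen, had the highest ratio of the tested Hist genes, with 1502 and 248 UMIs (2.85, 2.66 to 3.05). Of 51 Hist genes with at least 20 UMIs, 51 had a ratio above 0, 34 were past 1.5-fold higher and 0 past it lower, against 9.01% and 7.08% of all genes, with a median of 0.77. Some of the 51 intervals held 0. Without Hist1h2bc the Hist sum had a log2 ratio of 0.94. How reads of Hist copies with near-identical sequence were assigned was not examined, so the split among them is uncertain and the sum may be affected too.

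The 44 genes with the stem-loop letters and the 23 in which they were not found were both higher in SMA-labelled cells. The 19 genes whose annotated transcript ended within 50 bases of the stem-loop gave 4131 and 2136 UMIs (log2 ratio 1.21, 1.13 to 1.28). The 25 genes whose transcript ran on for more had 19571 and 12082 UMIs (0.95, 0.92 to 0.98). The 23 genes in which the letters were not found gave 18197 and 7764 UMIs (1.48, 1.45 to 1.52). Of these, 15, Hist1h1b among them, had at most 2 annotated bases after the stop codon and could not be searched, and they gave 2216 and 1849 UMIs (0.52, 0.43 to 0.61). The other 8, with Hist1h2bc, had 37 or more annotated bases there and gave 15981 and 5915 UMIs (1.69, 1.65 to 1.73). By gene the medians were closer, at 0.69, 0.90 and 0.73. Hist1h2bc alone gave 15548 of the 18197 SMA-labelled UMIs of these 23 genes, and Hist1h2ap and Hist1h4h gave 2145 and 1502 of the 4131 in the group with the nearest transcript end.

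**Figure D5:**
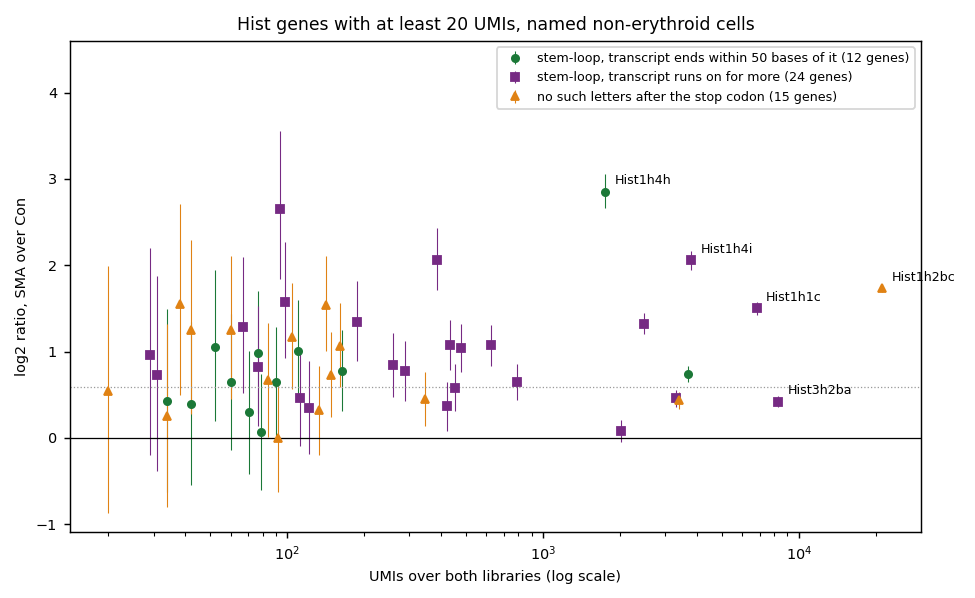
Log2 ratio of SMA-labelled over Con-labelled levels (y axis) against UMIs over both libraries (x axis, log scale) for the 51 Hist genes with at least 20 UMIs. Bars are exact 95% intervals, colours and shapes mark the 3 stem-loop groups, and the dotted line marks 1.5-fold. The 51 points lie above 0, though some bars cross it, and genes of all 3 groups lie on both sides of 1.5-fold.

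The other genes of the pathway were read by list over all named non-erythroid cells. Of the Sm proteins that the U7 ring shares with spliceosomal rings, 0 of 5 were past 1.5-fold in either direction, with a median of 0.29. The highest and lowest ratios of the list, named after they were seen, were those of Snrpf, with 219 and 168 CPM (0.39, 0.34 to 0.43), and Snrpb, with 379 and 372 CPM (0.03, -0.01 to 0.06). Snrpd1 and Snrpd2, which Lsm10 and Lsm11 replace, had ratios of 0.15 and 0.14. The 4 genes of the histone cleavage complex, which include the nuclease gene Cpsf3, had a median of -0.15 and none was past 1.5-fold. Of 10 genes of cap binding and histone mRNA use or decay, 13 of canonical polyadenylation and 7 of histone gene transcription, 0 were past 1.5-fold in either direction, with medians of -0.03, 0.08 and -0.11. In the SMN complex list 1 of 12 genes was past it, Gemin4, with 24 and 16 UMIs (0.84, -0.13 to 1.85), a share near that of all genes, of which 9.01% were past it higher and 7.08% lower. The cycle lists themselves had medians of -0.03 for S and 0.26 for G2M, with 0 of 24 genes past 1.5-fold in each, and the part of these shifts in the Hist ratio was not tested.

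The genes whose pattern was most like that of each factor were taken across 54 sums of class, cycle range and library, by Pearson's r of log2(CPM + 10) among 6507 genes. These sums share libraries and cells of a lineage, so r is a description. Slbp was nearest to Dek (0.92) and to the replication helicase genes Mcm5 (0.89) and Mcm3 (0.88). Eri1 was nearest to Fen1, Dnmt1 and Atad2 (0.87 to 0.88), Casp8ap2 to Prim2, Nasp and Dnmt1 (0.81 to 0.82) and Lsm11 to Prim1, Tex30 and Eri1 (0.79 to 0.83). Fen1, Dnmt1, Prim1 and Prim2 act in DNA replication or its upkeep, and Nasp is a histone chaperone. Fen1, Mcm3, Mcm5 and Prim1 were also in the S list that set the ranges. Lsm10 was nearest to Orai3, Ndufa4l2 and Vstm4 (0.66), of which Ndufa4l2 was a marker used to name mural cells, and Npat to Mapre1, Psmd14 and Fam168a (0.67 to 0.72). With the Hist sum over the same 54 points, r was 0.04 for Slbp, 0.13 for Casp8ap2, 0.15 for Lsm11, 0.19 for Eri1, 0.35 for Npat and -0.51 for Lsm10.

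The factor genes lie, on GRCm38, on chromosome 4 for Lsm10 (126096623 to 126098584, plus strand) and Casp8ap2 (32615451 to 32653265, plus), chromosome 11 for Lsm11 (45928269 to 45944935, minus) and chromosome 5 for Slbp (33634952 to 33652574, minus). Zfp473 lies on chromosome 7 (44731480 to 44751050, minus), Eri1 on chromosome 8 (35465253 to 35496196, minus) and Npat on chromosome 9 (53537047 to 53574342, plus), and all 7 are annotated as protein-coding.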

How the data were processed

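Single cells of whole spinal cord were captured with droplet 3′ chemistry, 1 library per group. The deposited values were raw UMI counts per gene and barcode, which the authors made with Cell Ranger against mm10, per the submitters' processing notes, and the file header named version 4.0.0. The notes also named Seurat 3.2.2. Barcodes had been filtered before deposit, and 26921 (SMA) and 25419 (Con) were listed.

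From these counts, barcodes with 200 to 4000 genes and less than 10% mitochondrial UMIs were kept, and a cluster with a median ribosomal share over 30% was left out. Doublets were treated only by the 4000-gene limit. Cells were clustered on 2000 variable genes, 30 principal components, 20 neighbours and a resolution of 1, without the members, the pathway lists and the Hist, mitochondrial and ribosomal genes. Classes were named from marker lists, needing at least 3 detected markers. UMIs were summed per library and class. Levels carry exact Poisson intervals, ratios exact conditional binomial intervals and shares Clopper-Pearson intervals, all at 95%, which cover counting error only, and the floor was 3 counts. A ratio was counted only with 20 or more UMIs over both libraries. No p-value was computed, since each group had 1 library.

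The members and all lists were chosen with earlier results of these data known. The text names the 7 members, the 8 Hist genes with most UMIs, the 3 genes nearest in pattern to each member with at least 500 UMIs (over sums of at least 200000 UMIs, among genes of at least 20 CPM on average), Smn1 and any pathway gene past 1.5-fold. Outside this rule, Hist1h4h, Snrpf and Snrpb were named after their values were seen, Snrpd1 and Snrpd2 as a whole list, Xist as a check of the libraries and Cpsf3 for its role only. Positions were matched by gene ID to GENCODE M21. Alternatives covered the filters, the shared barcodes, the clustering, the weighting, the fold and the thinning depth. Python 3.11.15, numpy 2.4.6, scipy 1.17.1, scikit-learn 1.9.0, igraph 0.11.9 and matplotlib 3.10.9 were used, and the ratio and interval functions were tested on simulated data.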

Additional observations from a re-analysis of the deposited data

Results flagged for a closer look

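Slbp differed between the libraries in opposite directions in different classes, each with an interval that left out 0. The log2 ratio of SMA-labelled over Con-labelled levels was 0.19 in microglia and 0.75 in Schwann cells, but -0.12 in OPCs and -0.42 in mural cells. Npat had a ratio of 1.14 in endothelial cells, whereas in mural cells it had 0 SMA-labelled UMIs and 16 Con-labelled ones. With shared barcodes left out of both libraries the ratio of Slbp was 0.27 in OPCs and 0.35 in both microglia and mural cells, while Schwann cells gave no value. It was then below 0 in oligodendrocytes (-0.93), endothelial cells (-0.036) and astrocytes (-0.0062), and the ratio of Npat in endothelial cells was 0.24. The differences between classes were not tested. These intervals cover counting error only, and the share of all genes whose interval left out 0 was not computed.

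Some signals lay in cells that the class comparisons did not use. In erythroid cells, 440 and 1035 of them, the log2 ratio was 0.85 for Slbp (21.0 and 11.7 CPM) and 1.16 for the Hist sum (195 and 87.0 CPM). In classes with too few cells to be compared, the Hist ratio was 0.46 in macrophages (83 and 138 UMIs), 0.41 in neurons (158 and 79 UMIs) and -0.04 in monocytes (60 and 211 UMIs), and the interval in monocytes held 0. In the SMA barcodes also listed for Con, the Hist sum stood at 597 CPM, above the 450 CPM of Con cells and below the 1024 CPM of the other SMA cells. These barcodes were shallow, with a median of 1354 UMIs, and had 536 CPM of Xist against 1.49 CPM in the other SMA cells, and whether they hold cells of the SMA animals was not tested.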

How the results depend on the processing

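With shared barcodes left out of both libraries (added after seeing the data), the pooled log2 ratio was -0.37 for Lsm10, 0.58 for Slbp, 0.95 for Casp8ap2, 0.59 for Npat and 1.48 for the Hist sum, and 13 of 42 member ratios within a class lay on the other side of 0. Of pairs that had been past 1.5-fold or had an interval that left out 0, these were Lsm11 in COPs (-0.47), Eri1 in mural cells (0.76) and microglia (-0.97), and Slbp in OPCs (0.27) and mural cells (0.35). All 42 had at least 20 UMIs in the main setting, but 38 pairs did with shared barcodes out of both. Some of the 42 ratios thus rest on fewer UMIs than the minimum. The Hist sum gave 1.05 with shared SMA barcodes kept, 1.10 with a limit of 7000 genes, 1.15 centred on the median gene and 0.94 without Hist1h2bc (added after seeing the data), and Casp8ap2 gave 0.33 with equal weight per cell. The 97 class values of the Hist sum were all above 0, the lowest 0.20 in oligodendrocytes with 7000 genes, and with shared barcodes out of both it went from 0.76 to 1.54 in OPCs and from 0.74 to 1.46 in oligodendrocytes. Pairs of a member and a class past the fold numbered 1 higher and 2 lower at 2-fold, 1 and 1 of 34 with at least 100 UMIs, 7 and 12 of 66 with no filter, 3 and 5 of 58 with shared SMA barcodes kept, and 10 and 9 of 38 with shared barcodes out of both. The share of all genes past the fold was computed for the main setting only. These counts therefore have no background and are not a result about the members. With 3 or more UMIs of a cycle list, the S range ratio of the Hist sum in OPCs was 1.10 and 1.29, and that of Lsm11 in SMA-labelled and Npat in Con-labelled microglia turned to -0.22 and -0.017. Thinned to 2000 UMIs, the Hist values in OPCs were 0.61 and 0.59, and Npat in Con-labelled astrocytes stood at -0.25, against 0.55 (-0.67 to 1.60) when thinned to 1000. Slbp, Casp8ap2 and Eri1 had S range ratios above 0 in 18 of 18 values, Lsm11 in 17, Npat in 16, the Hist sum in 16 (-0.30 to 1.29) and Lsm10 in 10. The cause of these shifts was not tested. No paired analysis was possible because each group was 1 library and the labels gave no replicate numbers. With 1 library per group, spread between animals was not measured, and members with under 20 UMIs in a class gave no usable ratio.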
